A study of Mus musculus with 4 samples.

Results

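Transcripts of the Lkb1, AMPK and mTOR complex genes were described in 4 lung tumours of KP mice. The 10 genes were taken by symbol from the combined raw count table and are Stk11 (which encodes Lkb1), Prkaa1, Prkaa2, Prkab1, Prkab2, Prkag1, Mtor, Rptor, Tsc1 and Tsc2. All 10 of the 39017 genes in the table were found, and all 10 were among the 14225 genes that reached a mean of 1 CPM, where CPM is the normalised read count in counts per 1e+06. The rule uses symbols only, although the genes were proposed with earlier results of these data known.

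The 4 tumours formed 1 group of controls and came from male KP mice on a C57BL6/J background, in which Cre recombinase switches on an oncogene and deletes both floxed p53 alleles (p53Fl/Fl). Each mouse received 1500 viral units of a lentivirus that expresses Cre recombinase from the PGK promoter, which is active in most cell types, so the cell of origin was not restricted by the vector. Tumours were macrodissected 22 weeks and 5 days after initiation and dissociated, and RNA of the whole suspension, with no removal of immune cells, was sequenced with 1 library per tumour. The genotype label reads heterozygous fl/wt with no gene name, while a table header marks the tumours as WT. By the study's methods, control mice carried at most 1 floxed copy of Slc2a1, which encodes the glucose transporter Glut1. Ages were not given in the labels. Nothing in the labels says which tumours shared a mouse, so p-values refer to these 4 samples only. The test of spread used below sets their differences against counting error. With 1 library per tumour, differences between tumours and between libraries cannot be told apart. In bulk RNA, fewer cells of a type and less RNA per cell cannot be told apart.

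Lkb1 is a serine/threonine kinase and tumour suppressor, often lost in lung adenocarcinoma, that phosphorylates the activation loop of AMPK. AMPK is a heterotrimer of a catalytic alpha, a scaffolding beta and a nucleotide-binding gamma subunit, and it restrains growth when AMP rises relative to ATP. It acts on mTORC1, the growth-promoting complex of the kinase mTOR and its scaffold Raptor, by phosphorylating Tsc2 and Raptor. Tsc2, held stable by Tsc1, switches off the GTPase Rheb that activates mTORC1. These are largely switches of phosphorylation, which transcript counts do not measure.

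The alpha subunits include the member with the widest spread, Prkaa2, and its more abundant and even counterpart Prkaa1, so the 250 bases before their RefSeq transcript starts are shown for comparison. The Prkaa1 window is chr15:5143611-5143860 (plus strand) and the Prkaa2 window is chr4:105109899-105110148 (minus strand, GRCm38.p6). Sequences run 5′ to 3′, and capitals mark GC boxes (GGGCGG on either strand, with overlaps counted).
Prkaa1: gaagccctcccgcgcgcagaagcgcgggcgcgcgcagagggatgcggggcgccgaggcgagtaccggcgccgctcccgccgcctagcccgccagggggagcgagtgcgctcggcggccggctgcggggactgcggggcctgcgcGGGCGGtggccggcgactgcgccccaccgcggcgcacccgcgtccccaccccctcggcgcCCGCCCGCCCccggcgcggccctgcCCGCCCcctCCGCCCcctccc
Prkaa2: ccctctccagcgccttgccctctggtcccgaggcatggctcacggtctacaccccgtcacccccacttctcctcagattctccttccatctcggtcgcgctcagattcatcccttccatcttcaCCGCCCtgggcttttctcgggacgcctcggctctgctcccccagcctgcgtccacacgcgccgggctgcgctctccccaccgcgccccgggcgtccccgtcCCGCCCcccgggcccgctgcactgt
GC boxes were counted 5 times before Prkaa1 and 2 times before Prkaa2, and 32.7% of all 32851 RefSeq promoter windows of this length held at least 1. The Prkaa1 window had 85.2% G and C with 45 CpG, the Prkaa2 window 70.0% with 24 CpG, and the median window 52.4% with 6 CpG. Among the other members, GC boxes were found before Prkab2 (5), Mtor (2) and Prkag1 (1). The CCAAT box (CCAAT, either strand) was found before Mtor (4), Stk11 (3) and Prkag1 (1), against 33.8% of all windows. The E-box CACGTG, the cAMP response element TGACGTCA and the TATA box TATAAA, each searched on both strands, were in none of the 10 members' windows and in 6.02%, 1.55% and 12.4% of all windows. Windows with no match lack only these letters.

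The libraries held 8151613 to 8799007 counts, so that 3 counts, the most that a count of 0 allows, were 0.330 to 0.370 CPM. Alveolar lung identity, but not tumour identity, was checked by marker transcripts. Of the alveolar type 2 markers 8 of 8 were above a mean CPM of 1, with summed levels between 31528 CPM in tumour 1 and 58636 CPM in tumour 4. Tumour 1 stood apart in its markers. In the mean log2 CPM of the alveolar type 2 list it differed by -1.04 from the other tumours. Of the 8 markers 6 were lowest in tumour 1, while Sftpb and Abca3 were lowest in tumour 3. The squamous sum of tumour 1 was 29.3 CPM against 1.05 to 3.93 CPM and came from Krt14 and Krt6a, while Dsg3 was at 0 in all 4. Trp63 (0, 1, 3 and 9 counts in tumours 1 to 4) and Sox2 (1, 1, 5 and 8) ran the other way. Krt5 had 4, 1, 2 and 2 counts. Tumour 3 had the highest pan-leukocyte transcripts, with all 5 markers at their highest and a summed level of 269 CPM against 114 to 156 CPM. Summed levels of the other lists ranged from 2488 to 3972 CPM for pan-epithelial, 110 to 222 CPM for macrophage, 180 to 244 CPM for endothelial, 339 to 791 CPM for fibroblast and smooth muscle, and 15.3 to 34.9 CPM for red blood cell markers. T cell markers reached 2.64 to 19.7 CPM and B and plasma cell markers 4.84 to 37.3 CPM. Both sums were highest in tumour 3. There Cd2 alone gave 12.6 CPM of the T cell sum, and Igj 31.6 CPM of the B and plasma cell sum. Trp53, the floxed gene of the model, had 13.0, 12.3, 9.75 and 12.7 CPM in tumours 1 to 4.

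The members had a median CPM of 55.3, against 27.4 for all tested genes, with Prkaa2 and Prkab2 below the latter. The median SD of log2 CPM between tumours was 0.18 for the members and 0.29 for all tested genes, and 8 of 10 members lay below the latter. Spread beyond counting noise was found for 6 of 10 members (chi-square test against Poisson counting error, Benjamini-Hochberg adjusted over 14225 genes), and 76.7% of all tested genes passed the same test. With library size as the only scaling 8 of 10 passed (77.3% of all), and without tumour 1 it was 7 of 10 (62.3% of all), so the members' count was not steadily below the share of all genes. The members that varied were Prkaa2, Prkab1, Prkab2, Prkag1, Rptor and Tsc2, and those that did not pass were Stk11, Prkaa1, Mtor and Tsc1. When the counts were instead set against the common dispersion that edgeR estimated over all genes, a biological coefficient of variation of 30.8%, 0 of 10 members passed, also at an unadjusted p under 0.05, and 3.38% of all genes did.

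**Figure D1:**
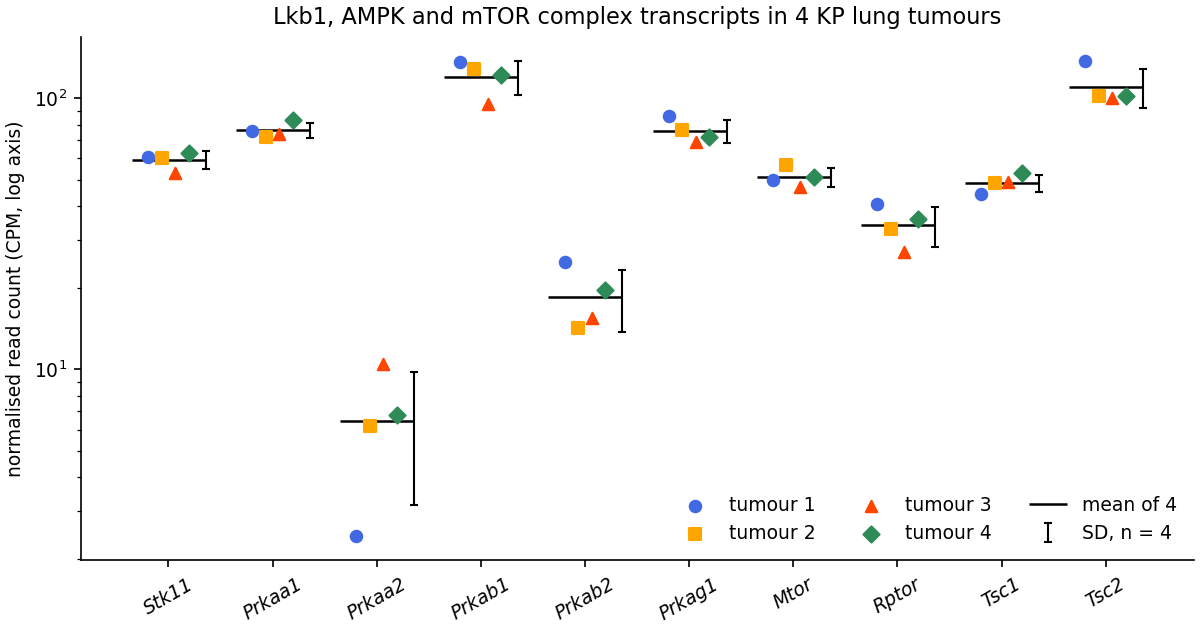
Normalised read counts (CPM, log axis) of the 10 members in tumours 1 to 4, with the mean (line) and SD (bar, n = 4). Prkaa2 was the scarcest member and spread from 2.42 to 10.5 CPM, whereas Stk11, Prkaa1, Mtor and Tsc1 stayed within a narrow band.

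**Figure D2:**
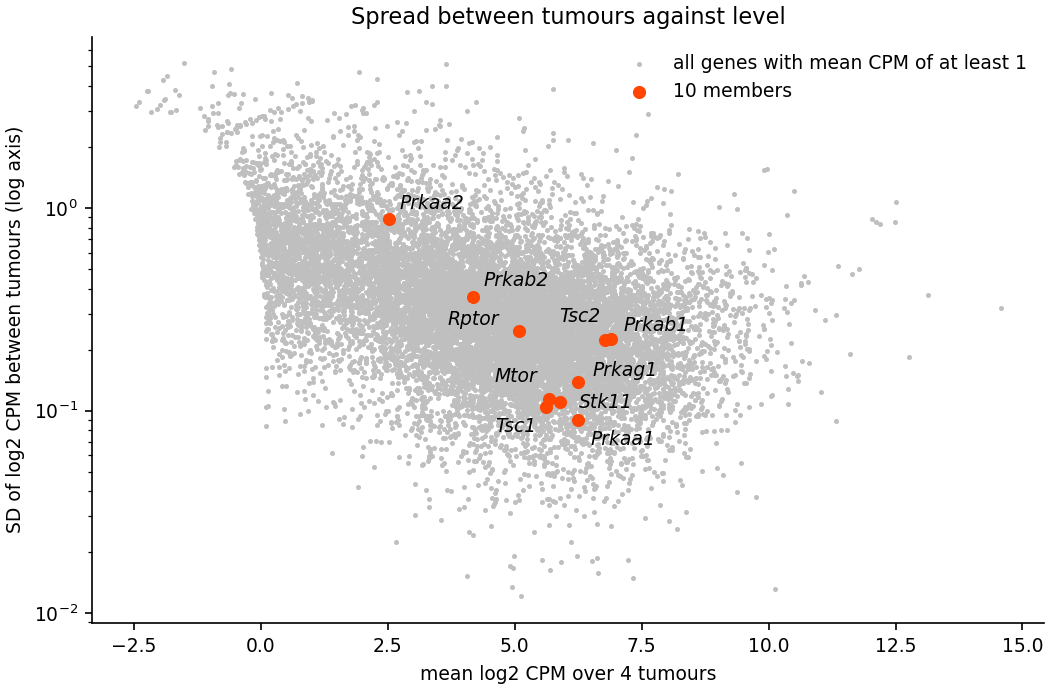
SD of log2 CPM between the 4 tumours (log axis) against mean log2 CPM for 14225 genes (grey), with the 10 members in orange. Prkaa2 and Prkab2 lay above the median SD of all genes (0.29), and the other 8 members below it.

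Stk11, the upstream kinase, was among the evenly expressed genes. Stk11 (ENSMUSG00000003068; chromosome 10, 80115803 to 80130682, plus strand, GRCm38; 11 exons in its longest annotated transcript) had 61.0, 60.4, 52.9 and 63.0 CPM in tumours 1 to 4 (59.3 ± 4.41, SD, n = 4). Tumour 3 was lowest and the other tumours lay between 60.4 and 63.0 CPM. The spread did not pass the test (adjusted p = 0.0573), and its SD of log2 CPM of 0.11 ranked 13061 of 14225 genes. The call was close to its limit and passed without tumour 1 (adjusted p = 0.0389) or without tumour 2 (0.0279). Stk11 shares 232 nt of exon with Cbarp on the opposite strand, which had 14.2 to 23.1 CPM, and the strand setting of the counting was not stated, so some reads may belong to Cbarp.

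The catalytic alpha subunits differed widely in level and in spread. Prkaa1 (ENSMUSG00000050697; chromosome 15, 5143861 to 5181899, plus strand; 9 exons), which encodes the broadly expressed alpha1, had 75.9, 72.1, 73.7 and 83.1 CPM (76.2 ± 4.87, SD, n = 4). Its 4 tumours lay close together, and the spread did not pass the test (adjusted p = 0.0627), although it did without tumour 1 (0.0346). Prkaa2 (ENSMUSG00000028518; chromosome 4, 105029874 to 105109890, minus strand; 9 exons), which encodes alpha2 and is best known from muscle and heart, had 2.42, 6.16, 10.5 and 6.78 CPM (6.46 ± 3.30, SD, n = 4), from 22, 53, 85 and 57 counts. Tumour 1 was lowest and tumour 3 highest, with a ratio of 4.33 (95% interval 2.69 to 7.28, counting error only). Prkaa2 passed the test of spread (adjusted p = 3.75e-09) and still did without tumour 1 (0.00567). Its SD of log2 CPM of 0.88 ranked 1135 of 14225 genes, the 92.0th percentile, and fell to 0.41 without tumour 1.

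Per kilobase of exon, Prkaa1 was above Prkaa2 in 4 of 4 tumours by 5.72, 4.31, 3.58 and 4.38 log2 units (mean 4.50 ± 0.89, SD, n = 4), a 22.6-fold higher RPKM. Each of 7 pairs of subunits or partners was compared in this way with an exact permutation test (two-sided, flipping signs of the 4 differences), which cannot go below p = 0.125, so no pair could pass 0.05. The alpha pair reached that smallest p of 0.125. Prkaa2 made up 3.09% of the summed alpha counts in tumour 1, with a 95% Wilson interval of 2.05 to 4.63%. Its share was 7.86% in tumour 2 (interval 6.06 to 10.1%), and tumour 4 was close to it at 7.54% (interval 5.87 to 9.64%). Tumour 3 had the largest share, 12.5% (interval 10.2 to 15.2%). The intervals of tumours 1 and 3 did not overlap each other or those of the other tumours. Corrected for length, the share of Prkaa2 was 4.70% ± 2.39 (SD, n = 4). Markers of heart or skeletal muscle had a summed level of 5.17, 6.97, 6.79 and 5.35 CPM in tumours 1 to 4, lowest in tumour 1 as Prkaa2 was and highest in tumour 2. Of the 8 markers, Myh6 had the same lowest and highest tumours as Prkaa2 (0.440, 0.813, 3.33 and 2.02 CPM). Actc1 had 0, 1, 8 and 0 counts, while Tnnt2 was lowest in tumour 3 (0.617 CPM). Ckm was highest in tumour 1, with 7, 0, 0 and 2 counts. Myl4 had 1.65, 1.86, 1.85 and 0.951 CPM, lowest in tumour 4. Nppa was at 0 throughout and Acta1 and Myl7 never exceeded 3 counts. Tumour 1, where Prkaa2 was lowest, also had the lowest alveolar type 2 sum, and tumour 3, where it was highest, the highest leukocyte transcripts. Their part in the result was not tested.

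**Figure D3:**
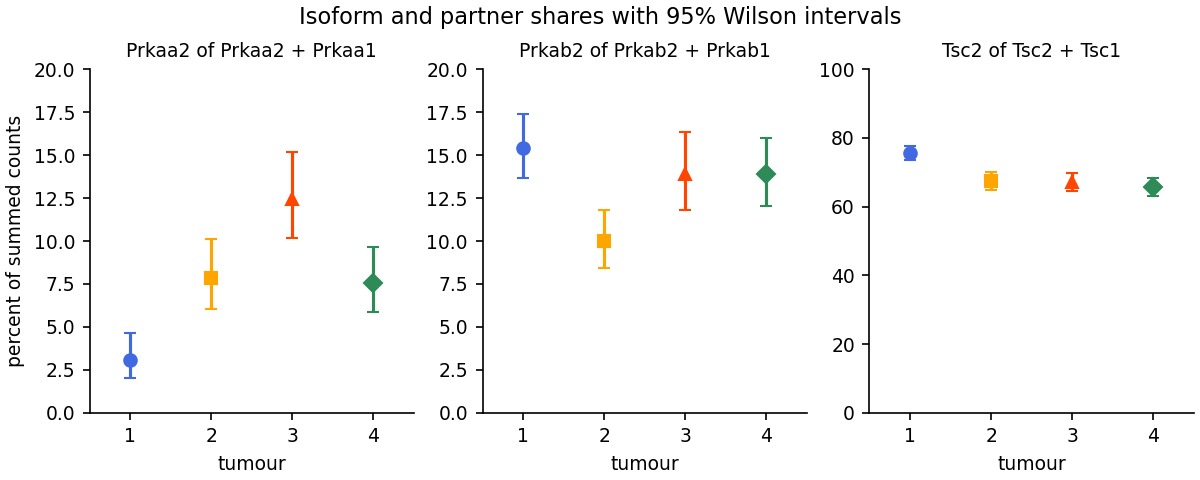
Share of Prkaa2 among alpha counts, of Prkab2 among beta counts and of Tsc2 among Tsc1 and Tsc2 counts (percent) in tumours 1 to 4, with 95% Wilson intervals as bars. The y axes end at 20, 20 and 100 percent; the Prkaa2 share ran from 3.09% to 12.5% and the Tsc2 share was highest in tumour 1.

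The scaffolding beta subunits were also dominated by 1 isoform. Prkab1 (ENSMUSG00000029513; chromosome 5, 116013586 to 116024508, minus strand; 7 exons), which encodes beta1, had 136, 128, 95.4 and 122 CPM (120.3 ± 17.6, SD, n = 4) and varied beyond counting noise (adjusted p = 2.14e-13). Tumour 3 was the low one and held most of the spread, since the SD of log2 CPM of 0.22 fell to 0.082 without it. Prkab2 (ENSMUSG00000038205; chromosome 3, 97658193 to 97673812, plus strand; 8 exons), which encodes beta2, had 24.9, 14.2, 15.4 and 19.6 CPM (18.5 ± 4.83, SD, n = 4; adjusted p = 7.51e-07). Tumour 1 was highest, 1.76 times tumour 2 (95% interval 1.4 to 2.2). Per kilobase Prkab1 exceeded Prkab2 in 4 of 4 tumours by 3.45 ± 0.31 log2 units (SD, n = 4; exact permutation p = 0.125), a 10.9-fold difference. The Prkab2 share of beta counts was 15.4%, 9.98%, 13.9% and 13.9%, so the beta balance moved less than the alpha balance, a contrast that was not tested.

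Among the gamma subunits, which bind AMP and ATP, Prkag1 prevailed. Prkag1 (ENSMUSG00000067713; chromosome 15, 98812797 to 98831521, minus strand; 12 exons) had 85.8, 76.7, 68.9 and 72.0 CPM (75.8 ± 7.40, SD, n = 4). Its spread passed the test (adjusted p = 0.000522) but not without tumour 1, the highest (0.230). Per kilobase it lay above Prkag2 in 4 of 4 tumours by 2.28 ± 0.33 log2 units (SD, n = 4; exact permutation p = 0.125), and Prkag2 had 46.5 ± 6.26 CPM. Prkag3, the gamma subunit of skeletal muscle, had only 1 to 8 counts per tumour, and the difference of Prkag1 from it, 8.30 ± 1.21 log2 units, was the widest of the 7 pairs but rests on those few counts. Summed over isoforms, the RPKM was 17.2 ± 1.08 for alpha, 42.9 ± 6.34 for beta and 42.2 ± 2.43 for gamma subunits (SD, n = 4), so that alpha transcripts were the fewest per length in all 4 tumours. An annotated antisense gene, B130046B21Rik, shares 950 nt of exon with Prkag1 and had 0 counts.

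Mtor and Rptor, the kinase and the scaffold of mTORC1, differed in their spread. Mtor (ENSMUSG00000028991; chromosome 4, 148448611 to 148557683, plus strand; 58 exons) had 49.8, 56.8, 47.0 and 51.3 CPM (51.2 ± 4.11, SD, n = 4) and did not pass the test (adjusted p = 0.0510). That value lies at the limit, and it passed without tumour 1 (0.0363), without tumour 4 (0.0228) or when only genes at a mean of 10 CPM or more were tested (0.0462). Rptor (ENSMUSG00000025583; chromosome 11, 119602905 to 119899576, plus strand; 34 exons), which encodes Raptor, had 40.7, 32.9, 27.0 and 35.8 CPM (34.1 ± 5.72, SD, n = 4; adjusted p = 3.99e-05). Tumour 1 was highest and tumour 3 lowest, 1.51-fold apart (95% interval 1.27 to 1.79), and Rptor still passed with any tumour left out. Per kilobase of all annotated exons Mtor was above Rptor in 4 of 4 tumours by 1.01 ± 0.24 log2 units (SD, n = 4; exact permutation p = 0.125). This depended on the length used, since the difference was 0.22 with the longest transcript of each gene.

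The 2 TSC genes behaved unlike each other. Tsc1 (ENSMUSG00000026812; chromosome 2, 28641228 to 28691167, plus strand; 23 exons) had 44.3, 48.8, 49.1 and 52.9 CPM (48.8 ± 3.51, SD, n = 4), an even level that did not pass the test (adjusted p = 0.103). Tsc2 (ENSMUSG00000002496; chromosome 17, 24595816 to 24632630, minus strand; 41 exons), which encodes the subunit that acts on Rheb, had 137.9, 101.6, 100.7 and 101.7 CPM (110.5 ± 18.3, SD, n = 4; adjusted p = 1.28e-16). Tumour 1 stood above the others, which lay between 100.7 and 101.7 CPM. By the ratio of the gap to the whole range (Dixon's test), Tsc2 was the only member with 1 tumour apart, 1 of 10, whereas 5.86% of all tested genes had such a tumour. Without tumour 1 the spread of Tsc2 was within counting noise (adjusted p = 0.986, SD of log2 CPM 0.0065). The Tsc2 share of summed Tsc1 and Tsc2 counts was 75.7% in tumour 1 (95% Wilson interval 73.5 to 77.7%) and 67.6%, 67.2% and 65.8% in the others. Per kilobase Tsc1 was below Tsc2 in 4 of 4 tumours, with a log2 difference of -1.93 in tumour 1 and a mean of -1.47 ± 0.32 (SD, n = 4; exact permutation p = 0.125).

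The count of Tsc2 is less certain than the others. Its exons share 693 nt with Pkd1 on the opposite strand. They share near-identical stretches (at least 80 nt at 97% identity or more) with 29 annotated genes, Pkd1 included, so the counting could split or lose reads. Also among the 29 were Tmem245 (up to 4487 counts), Acaca (up to 1245) and Mettl6 (up to 262). Pkd1 had 67.3, 49.3, 72.7 and 65.3 CPM and was not highest in tumour 1. Prkaa1, Prkaa2, Prkab1, Mtor and Tsc1 share no exon base with another annotated gene. Rptor and Prkab2 share 84 and 9 nt with genes that had at most 1 count.

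**Figure D4:**
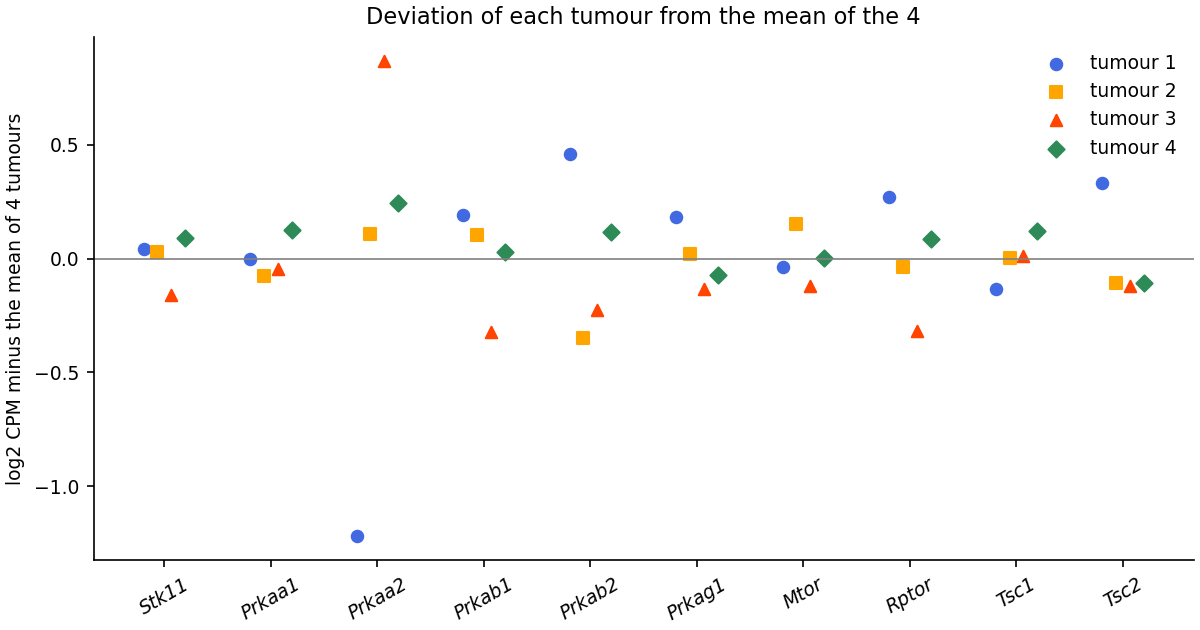
Difference of each tumour's log2 CPM from the mean of the 4 tumours, by member. Tumour 3 was lowest for Stk11, Prkab1, Prkag1, Mtor, Rptor and Tsc2 and highest for Prkaa2, and tumour 1 was far above the others for Tsc2.

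Across members, tumour 3 was most often the lowest tumour and tumour 1 most often the highest. Tumour 3 was lowest for 6 of 10 members (Stk11, Prkab1, Prkag1, Mtor, Rptor and Tsc2), and 32.6% of all tested genes were lowest there. Tumour 1 was highest for 5 of 10 (Prkab1, Prkab2, Prkag1, Rptor and Tsc2), against 31.4% of all tested genes. Tumour 4 was highest for Stk11, Prkaa1 and Tsc1 and lowest for no member, and tumour 2 was highest for Mtor. Prkaa2 ran the other way, highest in tumour 3 and lowest in tumour 1. The median difference of tumour 3 from the mean of the others was -0.17 log2 units over the members and -0.018 over all tested genes, and for tumour 1 it was 0.15 and 0.013. Most of these differences were small, and the order of tumours was not tested for the members as a set. Tumour 3 had the highest leukocyte transcripts and tumour 1 the lowest alveolar type 2 sum, as given above. The pan-epithelial sum was highest in tumour 1 (3972 CPM) and lowest in tumour 3 (2488 CPM), though only 1 of the 4 markers was lowest there. Macrophage, T cell, B and plasma cell, endothelial and red blood cell sums were highest in tumour 3. Of the 5 endothelial markers 3 were highest there. The fibroblast and smooth muscle sum was highest in tumour 1, but 3 of its 6 markers were highest in tumour 1 and 3 in tumour 3. The mean log2 CPM of that list was 5.52 in tumour 1 and 6.11 in tumour 3. The part of these differences in the orders was not tested.

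Levels of different genes were compared as RPKM, reads per kilobase of annotated exon and per 1e+06 counts. Prkab1 (39.2 ± 5.75 RPKM, SD, n = 4) and Prkag1 (34.9 ± 3.40) were highest, followed by Prkaa1 (16.4 ± 1.05), Stk11 (12.96 ± 0.963), Tsc2 (11.5 ± 1.9), Mtor (5.07 ± 0.407), Tsc1 (4.12 ± 0.297), Prkab2 (3.63 ± 0.948), Rptor (2.53 ± 0.425) and Prkaa2 (0.811 ± 0.415). Of the 9 neighbouring pairs in this order, 6 kept their order in 4 of 4 tumours. The others did so in 3 of 4. Stk11 and Tsc2 (log2 difference 0.18 ± 0.22, SD, n = 4) and Tsc1 and Prkab2 (0.21 ± 0.42) differed by less than their spread, and Prkab1 and Prkag1 (0.16 ± 0.13) by slightly more. With the length of the longest transcript in place of all exons, Tsc2 moved to the third place (17.6 RPKM), just above Prkaa1 (16.4), Stk11 moved to the fifth (16.2), Tsc1 moved above Mtor (6.34 against 5.98) and Rptor above Prkab2 (5.17 against 3.70), while Prkab1, Prkag1 and Prkaa2 held the first, second and last places. By that length 5 of 9 neighbouring pairs kept their order in 4 of 4 tumours, and Prkaa1 with Stk11 and Tsc1 with Mtor did so in only 2 of 4.

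The wider pathway was described from 12 lists of 78 genes, of which 77 were matched and 74 tested. Of these, 60 varied beyond counting noise (81.1%, against 76.7% of all tested genes). Without tumour 1 the number was 46 (62.3% of all tested genes passed then) and without tumour 3 it was 48 (62.4% of all). Against the common dispersion of all genes 1 of 74 passed, Brsk1, an AMPK-related kinase named after its values were seen, with 43, 6, 3 and 27 counts (adjusted p = 0.0259). The median ratio of the highest to the lowest tumour was 1.46.

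The Lkb1 complex genes passed the test in 4 of 4 cases, against 76.7% of all tested genes. Of them 3 were lowest in tumour 1, where 30.3% of all tested genes were lowest. The scaffold gene Cab39, which encodes Mo25, had 253, 268, 302 and 314 CPM and the pseudokinase gene Stradb 16.0, 25.2, 28.4 and 26.8 CPM, whereas Strada was highest in tumour 1 with 26.3 CPM against 18.1 to 21.5 CPM. Cab39l had 69.2, 84.0, 95.9 and 85.5 CPM. Of the other kinases that act on AMPK, Camkk2 had 23.7, 50.1, 41.3 and 30.9 CPM and Map3k7, which encodes Tak1, 84.7, 96.9, 108 and 93.7 CPM. Prkag2 had 39.2, 43.6, 52.6 and 50.8 CPM, again lowest in tumour 1. Of the AMPK-related kinases that Lkb1 also activates, 10 of 11 tested varied, against the same 76.7% of all tested genes. Sik1 ranged from 23.0 CPM in tumour 2 to 64.6 CPM in tumour 1, Nuak1 from 7.02 to 13.5 CPM and Mark2 from 93.1 to 126 CPM. Sik3 had 39.4, 41.0, 24.1 and 37.7 CPM, with tumour 3 apart from the others. Brsk2 had 0 counts in all 4 tumours.

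On the side of mTOR, 5 of 7 other complex subunits varied, against 76.7% of all tested genes. Of those, 3 were highest in tumour 1 and 3 lowest in tumour 3, against 31.4% and 32.6% of all tested genes. Akt1s1, which encodes the mTORC1 inhibitor Pras40, had 42.0, 20.7, 17.2 and 20.9 CPM. Rictor, the scaffold of mTORC2, had 358, 223, 282 and 294 CPM, and Prr5l, an mTORC2-associated gene, 26.3, 9.53, 13.7 and 18.6 CPM. Rheb, the GTPase that the TSC complex inactivates, was even by size, with 92.3, 92.9, 104 and 106 CPM, though it passed the test (adjusted p = 0.00545). Tbc1d7, the further TSC subunit, ranged from 9.51 to 17.4 CPM, and the Rheb relative Rhebl1, at 4.07 to 6.38 CPM, did not pass (adjusted p = 0.0710). Of the Rag GTPase and Ragulator genes, which place mTORC1 on lysosomes, 7 of 8 varied, against 76.7% of all tested genes. Of those, 6 were highest in tumour 1, where 31.4% of all tested genes were highest. Among them Rraga had 75.4, 67.8, 63.4 and 63.9 CPM, Lamtor2 44.2, 31.1, 26.9 and 29.7 CPM and Lamtor3 51.5, 39.1, 34.7 and 44.6 CPM.

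In the GATOR complexes, which control the Rag GTPases, 6 of 8 genes varied, against 76.7% of all tested genes. Depdc5 ranged from 24.1 to 36.6 CPM, Wdr24 from 17.5 to 30.9 CPM and Sec13, which also serves the secretory coat and the nuclear pore, from 117 to 171 CPM. Of the nutrient sensor and folliculin genes 7 of 9 varied, near the 76.7% of all tested genes. Sesn1 was at 10.1 to 19.9 CPM, Sesn3 at 21.7 to 52.3 CPM and Flcn at 46.7 to 75.2 CPM. Sesn1 was lowest in tumour 1 and highest in tumour 3, and Sesn3 was highest in tumour 1 and lowest in tumour 3. All 5 growth factor and stress inputs varied, against 76.7% of all tested genes. Akt1, a kinase that phosphorylates Tsc2, had 261 CPM in tumour 1, apart from 167 to 178 CPM in the others. Ddit4, the stress-induced mTORC1 inhibitor also called Redd1, lay between 17.6 CPM in tumour 3 and 46.9 CPM in tumour 2.

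Among AMPK substrates 6 of 8 varied, near the 76.7% of all tested genes. Acaca, the acetyl-CoA carboxylase of fatty acid synthesis, had 60.1 CPM in tumour 1, apart from 136 to 152 CPM in the others, and Acacb had 6.93, 13.0, 19.4 and 7.49 CPM. Crtc2, a CREB coactivator, ranged from 31.2 to 51.2 CPM. Of the mTORC1 substrates and outputs 5 of 8 varied, against 76.7% of all tested genes. Rps6, a ribosomal protein phosphorylated downstream of S6 kinase, had 339, 561, 484 and 542 CPM, and Rps6kb2, an S6 kinase gene, 16.1 to 24.7 CPM. Of these genes, Acaca shares near-identical stretches with 75 annotated genes, Prkag3 with 9, Rps6 with 7 and Sesn3 with 4, and exons of Akt1s1, Brsk1, Prr5l, Strada, Cab39l, Prkag2, Rhebl1 and Rps6kb2 overlap another gene, so their counts are uncertain. In all, 3 of 74 genes had 1 tumour apart (Sik3, Akt1 and Acaca), against 5.86% of all tested genes, and 5 did with library size only.

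**Figure D5:**
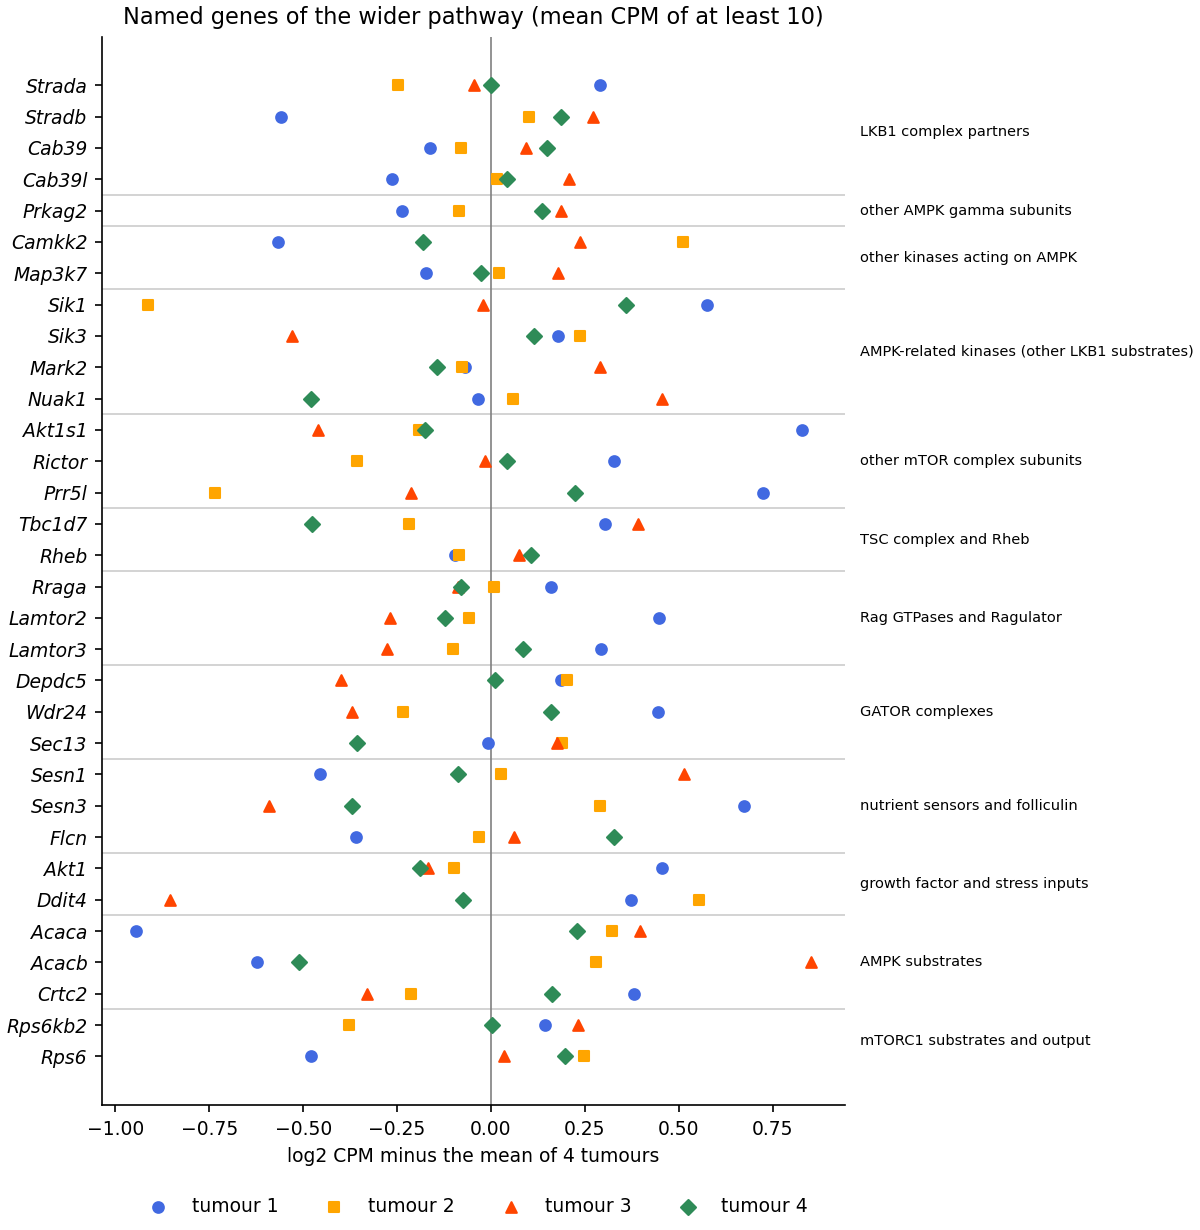
Difference of each tumour's log2 CPM from the mean of the 4 tumours for the named genes of the 12 lists that reached a mean of 10 CPM, grouped by list. Acaca was lowest in tumour 1 (60.1 CPM), Akt1 was highest there (261 CPM), and Sik3 was lowest in tumour 3.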

How the data were processed

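RNA of 4 bulk KP lung tumours was analysed from raw counts per Ensembl gene, which the authors deposited without normalization. Per the labels and methods, stranded polyA libraries were made from 500 ng of RNA, and single-end reads were trimmed with cutadapt, aligned to mm10 with HISAT2 and counted with featureCounts 1.4.4 (named in the submitters' processing notes). Strand setting and annotation release were not given in the sources used here. The authors also deposited log2 normalised counts (TMM and voom), used here as an alternative only. Of 156068 counts in the combined and single tables, 0 differed.

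Effective sizes were totals times TMM factors (edgeR 4.0.16, R 4.3.3), and log2 CPM had 0.5 added to each count. RPKM used the union of exons in GENCODE M21 (GRCm38), where 96.6% of IDs were found. Copies were searched with BLAST 2.17.0. Spread was tested by a chi-square test with 3 degrees of freedom, with Benjamini-Hochberg adjustment over the genes that reached a mean of 1 CPM, pairs by exact sign-flip permutation, and tumours apart by Dixon's ratio at its 95% limit, scipy 1.17.1 being used. The scripts were tested on simulated data. Intervals and floors cover counting error only, since they were computed from read counts alone. Reads carried no molecular identifiers, so even that error may be understated.

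The members and lists were chosen with earlier results of these data known. From each list of at most 4 genes all were named, and from longer lists the gene with the highest RPKM, the 2 with the largest ratio of highest to lowest CPM and those with 1 tumour apart, provided they reached a mean of 10 CPM. Some genes of the lists and of the model are not reported here. Of 78 list genes Samtor was not matched, and Castor1 and Castor2 were matched as Gatsl3 and Gatsl2. Promoter windows are from RefSeq (GRCm38.p6), where 10 of 10 members matched. Alternatives were DESeq2 1.42.0 size factors, library size only, other filters, added counts and lengths, edgeR's common dispersion, the deposited log2 table and leaving out each tumour.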

Additional observations from a re-analysis of the deposited data

Results flagged for a closer look

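In groups of 4, a tumour was marked where its gap to the nearest other tumour made up most of the whole range (Dixon's ratio at its 95% limit). Of 54 values tested 5 passed. Some of the genes behind them were named because they passed this same ratio or had a large range. The 2.7 that normal noise would give for unselected values is therefore no fair yardstick, and single marks carry little weight. Tsc2 in tumour 1 had 137.9 CPM against 100.7 to 101.7 CPM in the others, and the log2 RPKM of Tsc1 minus Tsc2 in tumour 1 was -1.93, which rests on the same Tsc2 counts. Akt1 in tumour 1 had 261 CPM, and Acaca in tumour 1 had 60.1 CPM. Sik3 in tumour 3 had 24.1 CPM.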

How the results depend on the processing

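Under the alternatives that were run, 443 values in all for 60 results, 406 kept their direction and call or stayed within the spread, and 0 changed direction. The order of members per kilobase entered this tally only as the number of neighbouring pairs that kept it, so swaps were not counted. With the longest transcript Rptor was above Prkab2 in 4 of 4 tumours, and by all exons it was below in 4 of 4. Against edgeR's common dispersion the number of members that varied went from 6 to 0 (0 at an unadjusted p under 0.05). The share of all genes went from 76.7% to 3.38%, because that test asks for more spread than the common 30.8%. The median coefficient of variation beyond counting noise was lower, 17.9% over all tested genes and 11.6% over the members. With library size only 8 members varied, Stk11 (adjusted p = 0.0291) and Prkaa1 (0.0305) joining, against 77.3% of all genes. Leaving out each tumour in turn gave 6 to 7 members, against 62.3% to 71.9% of all genes. Among the wider lists, genes with 1 tumour apart went from 3 to 5 with library size only. No paired analysis was possible because the design has 1 group. The ratio for a tumour apart was not run on 3 tumours. Counts set the precision of Prkaa2 (22 to 85 per tumour).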
